A study of Arabidopsis thaliana with 6 samples.

Results

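RNA recovered with the m6A reader ECT2 from Arabidopsis seedlings was related, locus by locus, to how abundant the same RNA was before precipitation. The 4 libraries used, 2 FA-CLIP and 2 input, are part of a set of 6, and the other 2 are mock precipitations that give the bead background. FA-CLIP (formaldehyde crosslinking and immunoprecipitation) fixes protein to RNA in intact tissue with formaldehyde, digests the RNA with RNase T1 and precipitates the protein with the fragments bound to it. All plants were 14-day-old seedlings of the Col-0 background. Input and FA-CLIP libraries came from the genotype written transgenic ECT2:ETC2-Flag/ect2, in which a FLAG-tagged ECT2 transgene is carried by the ect2 mutant SALK_002225, so they hold no untagged control. FA-CLIP RNA was precipitated with anti-FLAG M2 magnetic beads, input RNA had no antibody, and the mock put wild-type Col-0 extract on such beads. Nothing in the labels says whether the 2 replicates of a group were separate cultures, so their spread may be technical. Input was made into libraries with a total RNA kit and the precipitates with a small RNA kit, so an effect of the kit and an effect of precipitation cannot be told apart.

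A locus entered the comparison when it lay on one of the nuclear chromosomes and had at least 1 FPKM (fragments scaled to transcript length and library size) in both inputs. This held for 17126 of 33275 loci (51.5%), of which 16639 were annotated as protein-coding. The last locus left out had 0.999706 FPKM in its lower input and the first one kept had 1.00027 FPKM. For each locus the conversion events of its distinct FA-CLIP sites were summed. A site is a stretch of RNA listed in the deposited files with at least 2 events.

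ECT2 belongs to the YTH-domain proteins, whose aromatic pocket binds N6-methyladenosine (m6A), a methyl mark that a nuclear methyltransferase complex writes on messenger RNA. In Arabidopsis m6A lies mostly in 3′ UTRs near the stop codon, and ECT2 is a cytoplasmic reader that acts in leaf formation and trichome branching. How many events an RNA gives depends on its abundance, on how many of its molecules are bound and on the method, such as the library kit. Recovery is therefore described here relative to RNAs of like abundance, except at the highest inputs, where the reference is broader. A recovery is not a measure of the share of molecules bound.

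The FA-CLIP libraries held 40689 and 40261 distinct sites with 838537 and 768813 events on the nuclear chromosomes, of which 62.0% and 72.3% of the events fell in the compared loci. In the mock libraries 15.0% and 13.5% of 403566 and 531623 events did. Inputs agreed closely across the compared loci (Spearman 0.990), and 75 loci (0.438%) had inputs more than 2-fold apart. The number of reads behind the inputs is unknown. The light-harvesting antenna genes, markers of green tissue, were all compared (27 of 27), with a median input of 1443 FPKM. In bulk seedlings, fewer cells of a type and less RNA per cell cannot be told apart. An exact permutation test of 2 libraries against 2 has a smallest p of 0.333, and events and FPKM are different units, so loci are described by values and counts in both libraries.

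Events rose with input abundance, but not at a constant rate. Among loci of 4 to 8 FPKM the median locus had 3 and 4 events in FA-CLIP 1 and FA-CLIP 2, and the medians rose with each doubling of input up to 256 FPKM: 10 and 12 events from 8 FPKM, 23 and 28 from 16, 49 and 60 from 32, 98.5 and 119.5 from 64, and 210 and 276 from 128 FPKM. Above that the medians were 302.5 and 280 events from 256 FPKM, 290.5 and 218.5 from 512 FPKM, and 434 and 272 from 1024 FPKM. The median events per FPKM rose from 0.561 and 0.801 at 4 FPKM to 1.22 and 1.60 at 128 FPKM and were 0.244 and 0.174 at 1024 FPKM or more. The Spearman correlation of events with mean input was 0.665 and 0.658 across the 17126 loci, against 0.225 and 0.257 for mock events. These are correlations across loci, which share the same libraries and are not independent replicates. Within the range of 10 to 100 FPKM the correlation was 0.395 and 0.383.

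**Figure D1:**
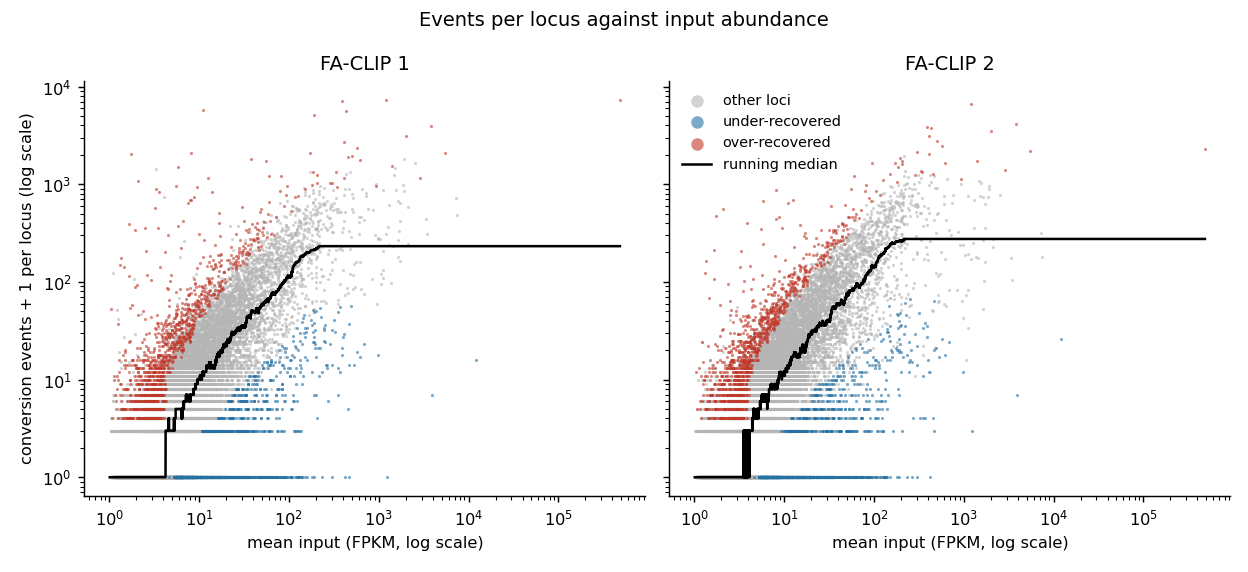
Conversion events per locus plotted against mean input FPKM on log axes for the 17126 compared loci, with the running median used as reference. The cloud rises with input and the median flattens at the top, where loci of 220.305 FPKM or more share running medians of 231 and 274 events.

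A site was listed in both FA-CLIP libraries for 54.4% of the compared loci (95% Wilson interval 53.6 to 55.1%). This share was 39.1% (38.2 to 40.03%) at 1 to 10 FPKM, 82.5% (81.5 to 83.5%) at 10 to 100 FPKM and 95.1% (93.0 to 96.6%) at 100 FPKM or more. In both mock libraries a site was listed for 0.932%, 2.38% and 46.0% of the same loci. These intervals cover counting error only. Of the loci at 100 FPKM or more, 16 (2.79%) had no listed site in either FA-CLIP library, and 556 (10.5%) of those at 10 to 100 FPKM had none. ECT2 itself, whose reads from the transgene and from the mutant locus cannot be told apart, had inputs of 72.1 and 74.9 FPKM, 86 and 78 events and none in the mock.

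Recovery was defined as log2 of a locus's events plus 1 over the median events plus 1 of the locus and its 400 neighbours in input, separately in each FA-CLIP library. A recovery of 0 is the median of these neighbours, and 2 is 4-fold more. Loci of 220.305 FPKM or more share the same running medians, 231 and 274 events, so their reference is not limited to loci of like abundance. At 1024 FPKM or more the median locus had 434 and 272 events, so in FA-CLIP 1 a typical locus there lies above a recovery of 0. Loci at or above 2 in both libraries are called over-recovered here, and loci at or below -2 in both are called under-recovered. The second call needs a running median of at least 3 events, which was reached from about 4.59 FPKM. Over-recovered loci numbered 1215 of 17126 (7.09%), and under-recovered loci 1863 of the 9593 that could be (19.4%). Of the over-recovered loci 606 (49.9%) lay where the running median was 0 events, so that 3 events in each library sufficed. In both libraries 674 had at least 10 events. Of the under-recovered loci 1292 had no event in either library. The share with a mock site was 11.9% in over-recovered, 6.82% in under-recovered and 6.32% in all compared loci.

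A larger share of the low calls than of the high calls was shared by both libraries, with no test of the difference. Of 2399 loci at or below -2 in FA-CLIP 1, 77.7% were so in FA-CLIP 2, against 24.8% of all loci that could be. Of 2234 loci at or above 2 in FA-CLIP 1, 54.4% were so in FA-CLIP 2, against 11.5% of all loci. Another 6 loci were called high in one library and low in the other. Recovery had a Spearman correlation of 0.770 between the libraries across loci. Both libraries were set against the same mean input, so the values share that reference. With each library set against the other-numbered or same-numbered input, the high share was 57.5% or 52.4% and the low share 76.7% or 77.5%.

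**Figure D2:**
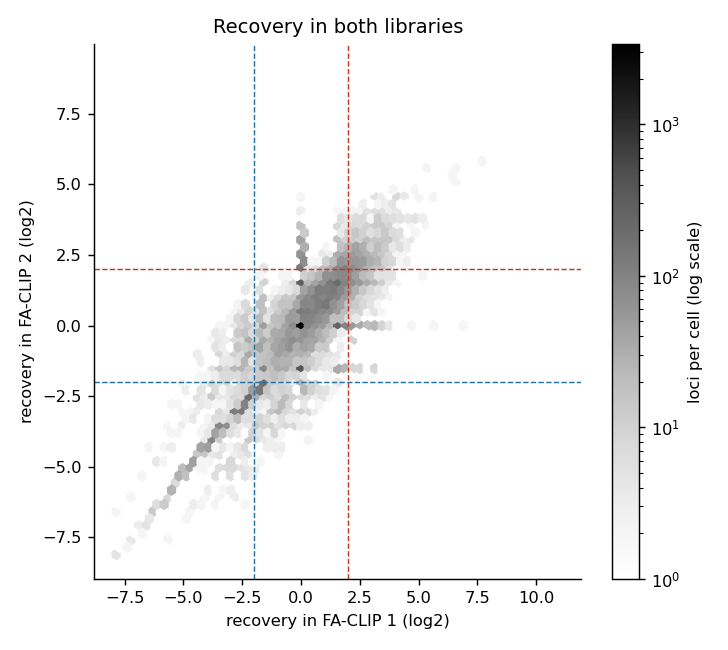
Recovery in FA-CLIP 2 plotted against recovery in FA-CLIP 1 for the compared loci, both on the log2 scale, with the thresholds of 2 and -2 drawn. At this threshold 1863 loci lie past it on the low side and 1215 on the high side, a balance that turns at a 2-fold threshold (3027 and 3460).

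The strongest sites of the over-recovered protein-coding loci with at least 10 FPKM, which are named below, are shown as 30-nt windows centred on the site with the most events in FA-CLIP 1. They show where on the transcript the events sit and what the RNA looks like there. Coordinates are those of the TAIR10 chromosomes, the letters were read from the RefSeq TAIR10.1 sequence of the same chromosomes on the strand of the RNA, 5′ to 3′, and capitals mark TGTA (UGUA in RNA), a motif described at plant m6A sites. One more window, from RPK2, is added for its single site.
RPK2 (chr3:384197-384226, plus strand): gatttgattattattctttctttaaaaaaa
FAH2 (chr4:11174470-11174499, minus strand): tttgaacatatttttagtggtttaatatca
PVA12 (chr2:18610890-18610919, plus strand): tcttgttgtttactctctctctctcctcca
VMA10 (chr3:150034-150063, minus strand): actcttcttTGTAttcatatatttggaacg
AT4G39280 (chr4:18281551-18281580, minus strand): ttcaattctacctttggttactggacttta
AGD5 (chr5:22057149-22057178, minus strand): ctctggacagtttttctctgttaaacatat
TCTP (chr3:5669603-5669632, minus strand): tttcgtcgtcgtcccctattaaaattacct
PSBR (chr1:29736893-29736922, plus strand): tagtgttTGTAtatatattcatcttcctat
ARFA1E (chr3:23053632-23053661, plus strand): atttcatactctttgttcttcgctctaata
GGT1 (chr1:8268612-8268641, minus strand): gccctattctataaaccatatctctctctt
PSAL (chr4:7522613-7522642, plus strand): cttattgacattaatttatatttgccttgc
All these sites are placed in 3′ UTRs by the deposited files except that of PVA12, which they place in a 5′ UTR. The windows of VMA10 and PSBR hold TGTA.

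In each abundance range 5 loci are named by the highest value of their lower recovery, so their recoveries are given as a description and without a test. At 100 FPKM or more these were TCTP, PSBR, ARFA1E, GGT1 and PSAL, all at inputs where the running medians were 231 and 274 events. TCTP (AT3G16640, chromosome 3, 5669317 to 5670842, minus strand), the translationally controlled tumour protein that promotes growth, had inputs of 1299 and 1099 FPKM and 7291 and 6605 events, against 66 and 101 in the mock. Its recovery was 4.97 and 4.59, and its events lay in 25 and 23 sites. The site on which the window above is centred held 2489 of them in FA-CLIP 1, and the overlapping site in FA-CLIP 2 held 1608. The small GTPase ARFA1E (AT3G62290, chromosome 3, 23051544 to 23053893, plus strand), of the ARF class that forms transport vesicles, had 7130 and 3883 events at 415 and 370 FPKM. GGT1 (AT1G23310, chromosome 1, 8268385 to 8272021, minus strand), the peroxisomal glutamate:glyoxylate aminotransferase of photorespiration, had 5577 and 3778 events at 435 and 438 FPKM. Both were higher in FA-CLIP 1, with recoveries of 4.94 and 3.82 for ARFA1E and of 4.59 and 3.78 for GGT1, and mock events of at most 57.

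The other pair encode photosystem subunits. PSBR (AT1G79040, chromosome 1, 29735952 to 29737009, plus strand), a photosystem II protein, had inputs of 4219.9 and 3470.1 FPKM, 3912 and 4083 events, 76 and 93 mock events, and a recovery of 4.08 and 3.89. A single site held 43.7% and 94.0% of those events, and the gene overlaps another. PSAL (AT4G12800, chromosome 4, 7521257 to 7522761, plus strand), a photosystem I subunit, had 3093 and 3497 events at 2133 and 1889 FPKM, with 63 and 46 in the mock.

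At 10 to 100 FPKM the 5 loci had 155 to 1208 events in a library and at most 5 in a mock library. VMA10 (AT3G01390, chromosome 3, 149940 to 151572, minus strand), subunit G of the vacuolar proton pump, had inputs of 63.2 and 56.8 FPKM and 1208 and 1207 events where the running medians were 63 and 82. FAH2 (AT4G20870, chromosome 4, 11174450 to 11176881, minus strand), a sphingolipid fatty acid 2-hydroxylase, had 235 and 377 events at 16.0 and 14.2 FPKM, its annotated model is partial, and it overlaps another gene. PVA12 (AT2G45140, chromosome 2, 18610806 to 18613302, plus strand), an endoplasmic reticulum protein of the VAP class, had 292 and 318 events at 17.4 and 17.0 FPKM. It differs from the rest in that 41.8% and 40.3% of its events lay in sites placed in the 3′ UTR. AT4G39280 (chromosome 4, 18280098 to 18284931, minus strand), a phenylalanine tRNA synthetase, had 155 and 165 events at 10.07 and 10.4 FPKM. AGD5 (AT5G54310, chromosome 5, 22056986 to 22061270, minus strand), an ARF GTPase-activating protein, had 158 and 229 events at 12.3 and 13.5 FPKM. Recoveries of the 5 loci ran from 3.51 to 4.24.

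At 1 to 10 FPKM 8.75% of the protein-coding loci were over-recovered and 18.4% of those that could be were under-recovered. The running median was 0 events at all 5 named loci, and none of them had a mock event. RPK2 (AT3G02130, chromosome 3, 380350 to 384582, plus strand), a leucine-rich repeat receptor kinase that acts in meristem and anther development, had 576 and 141 events at 3.14 and 3.36 FPKM, all in 1 site per library. With input times transcript length as the reference its mean recovery of 8.16 became 5.46, and that of AT1G27750, 5.49, became 3.04. RVE1 (AT5G17300), a clock-linked MYB-like factor that acts in auxin and seed dormancy, had 49 and 94 events at 2.48 and 2.21 FPKM and overlaps another gene. TRX1 (AT3G51030), a cytosolic thioredoxin, had 34 and 44 events at 3.296 and 3.65 FPKM and also overlaps another gene. The uncharacterised AT1G27750 had 43 and 45, and AT3G05900 had 41 and 45 and overlaps an antisense noncoding gene.

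**Figure D3:**
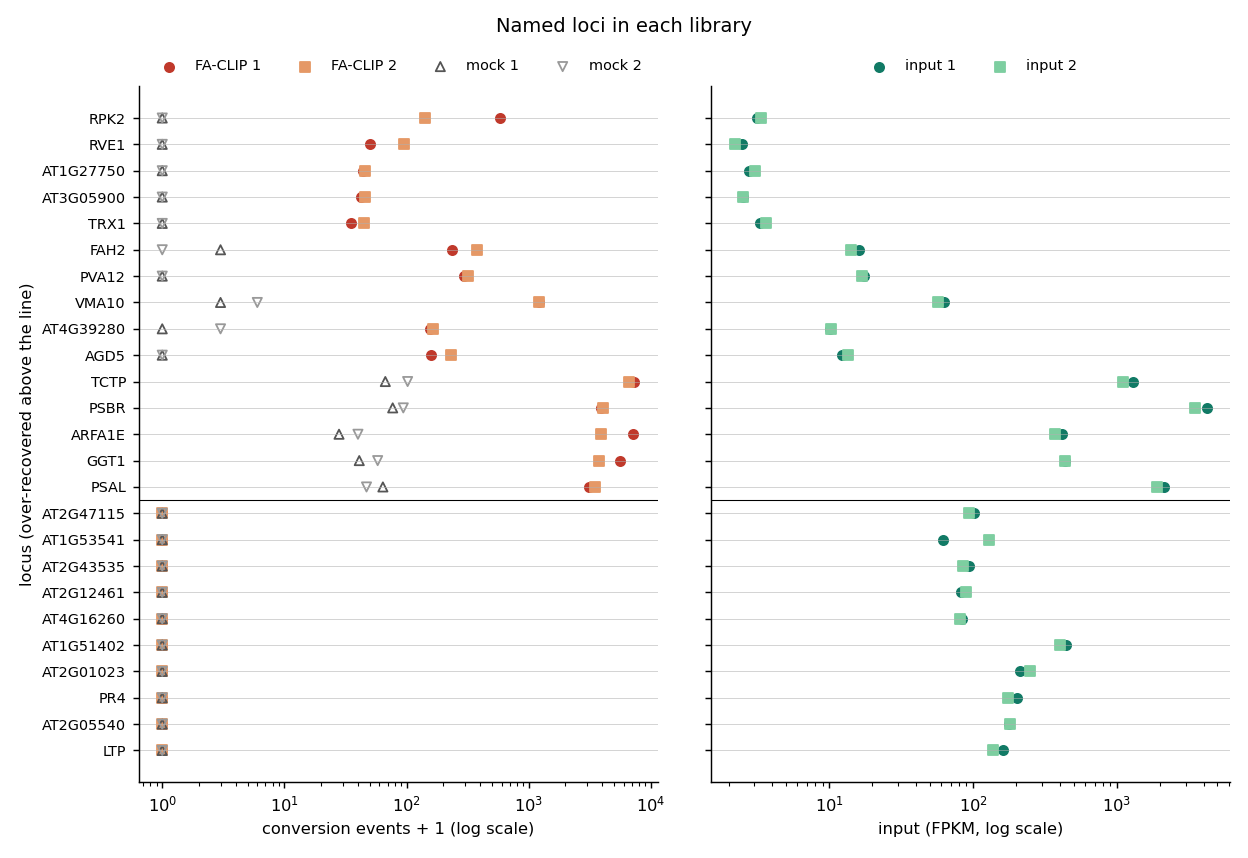
Events per FA-CLIP and mock library for the named over- and under-recovered loci, on a log scale of events plus 1, beside their FPKM in each input. The over-recovered loci, above the line, have more events in each FA-CLIP library than in either mock library. The under-recovered ones, below it, have 0 events in all 4 FA-CLIP and mock libraries. Running medians are not drawn.

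The under-recovered loci named by the same kind of rule had 0 FA-CLIP events and 0 mock events in every library. Because a site needs 2 events to be listed, a 0 leaves room for single events, and their recoveries are limited by the running median. At 100 FPKM or more they included PR4 (AT3G04720), a chitin-binding pathogenesis-related protein, with inputs of 204 and 175 FPKM and running medians that put its recovery at -7.73 and -8.03. The glycine-rich protein AT2G05540 had inputs of 178 and 180 FPKM, and LTP (AT2G15050), a lipid transfer protein, had 160 and 138 FPKM. AT1G51402 had 445 and 405 FPKM, and AT2G01023 had 211 and 249.99 FPKM from a gene of 120 nt. At 10 to 100 FPKM they were AT2G47115, the defensin-like AT2G43535, the glucanase AT4G16260 (84.5 and 81.1 FPKM) and 2 short genes, AT1G53541 of 111 nt and AT2G12461 of 135 nt. Of these, AT1G53541 had inputs of 62.3 and 128 FPKM, more than 2-fold apart. For the 3 shortest genes the value rests on the length scaling: with input times transcript length as the reference, mean recovery moved from -6.98 to -2.45 for AT1G53541, from -6.75 to -2.45 for AT2G12461 and from -7.98 to -4.25 for AT2G01023.

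Grouped by function, lipid transfer proteins, class III peroxidases and histones had the lowest median recoveries, and vacuolar ATPase subunits, 14-3-3 proteins and 26S proteasome subunits the highest, as means of both libraries. Of 41 function lists 6 had a median recovery of -1 or lower and 7 of 1 or higher, where all protein-coding loci had a median of 0.00 with 7.05% over-recovered and, of the 9362 that could be, 18.5% under-recovered. Another 11 lists had a median of 0. They ran from pentatricopeptide repeat proteins, at a median input of 2.09 FPKM, where a locus without events has a recovery of 0, to the light-harvesting antenna proteins at 1443 FPKM, of which 9 lay above 0 and 9 below 0 in both libraries. Of all 16639 protein-coding loci, at a median input of 6.28 FPKM, 5642 were above 0 and 4215 below 0 in both libraries. No event was listed in either library for 4972 of them. Lists were described, not tested.

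Lipid transfer proteins, small secreted proteins that carry lipids to the cuticle and cell surface, had the lowest median, -3.31 over 60 compared loci (-3.17 and -3.46 in the libraries). Of the 47 that could be, 38 were under-recovered, and 41 had no event in either library. Class III peroxidases, secreted enzymes that act on cell-wall polymers, had a median of -2.85 over 52 loci, with 31 of 36 under-recovered and 42 without events. AT2G37130, the lowest of them, had 0 and 0 events at 53.4 and 50.3 FPKM. Expansins and xyloglucan endotransglucosylases, which loosen and remodel the wall, had a median of -1.66 over 39 loci, with 18 of 25 under-recovered. EXPA4 had no event at 28.7 and 27.1 FPKM, whereas TCH4, the list's highest, had 28 and 11 events at 5.49 and 4.22 FPKM, with 0 and 4 in the mock. Arabinogalactan and fasciclin-like proteins, which sit at the cell surface, had a median of -2.07 over 41 loci, with 19 of 34 under-recovered. AGP2 had no event at 36.9 and 33.3 FPKM and FLA18 had 34 and 35 at 14.4 and 13.2 FPKM. In these 4 lists no locus was over-recovered.

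Aquaporins, channels for water, were spread widely around a median of -1.16 over 25 loci, with 9 of 20 under-recovered and 0 over-recovered. Their median was -0.98 in FA-CLIP 1 and -1.75 in FA-CLIP 2. It lay at -1 or lower in 15 of 20 settings, with a highest value of -0.61. The vacuolar channel TIP2;2 had 0 and 0 events at 122 and 119 FPKM, while the plasma membrane channel PIP1B had 458 and 633 events at 611 and 580 FPKM, a recovery of 0.98 and 1.21.

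Vacuolar ATPase subunits, which make up the proton pump of the vacuole, had the highest median, 1.65 over 17 loci, and 3 were over-recovered. Their median was 1.73 in FA-CLIP 1 and 1.23 in FA-CLIP 2. In FA-CLIP 2 the 14-3-3 proteins (1.59), 26S proteasome subunits (1.38) and translation factors (1.29) were higher. The lowest of the vacuolar ATPase subunits, VHA-E3, had no event at 22.0 and 21.0 FPKM. Of the 17 loci 14 were above 0 in both libraries, and 2 had no event in either. The 14-3-3 proteins, which bind phosphorylated partners, had a median of 1.64 over 10 loci, and GRF6 had 2071 and 1661 events at 182 and 160 FPKM, with 8 and 23 in the mock. All 39 compared subunits of the 26S proteasome, the complex that degrades ubiquitinated proteins, had a site in both libraries. Their median input was 20.7 FPKM, and of all compared loci at 10 to 100 FPKM 82.5% had a site in both. The median recovery of the subunits was 1.30, and 33 were above 0 in both. RPT5A, an ATPase of its regulatory particle, had 176 and 601 events at 33.3 and 33.2 FPKM, whereas the ATPase-like AT1G53780 had 6 and 2 events at 15.0 and 18.01 FPKM.

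Rab and ARF GTPases, switches of vesicle traffic, had a median of 1.15 over 61 loci, with 8 over-recovered (13.1%) and none of 46 under-recovered. Photorespiration enzymes had a median of 1.15 over 16 loci, from GGT1 down to the serine hydroxymethyltransferase SHM4 with 25 and 35 events at 61.7 and 57.4 FPKM. Ubiquitin-conjugating enzymes had a median of 1.00 over 39 loci with 7 over-recovered, and translation elongation and initiation factors 1.00 over 67 with 11 over-recovered. Both medians sit at the limit of 1, which they reached in 13 and 12 of 21 settings, with lowest values of 0.61 and 0.75. Other lists of the ubiquitin system had a median of 0, with 4 of 40 F-box and 34 of 122 RING and U-box loci under-recovered. The highest translation factor, EIF3G2, had more mock events (25 and 38) than FA-CLIP events (24 and 8), so these events were no higher than those on beads without the tag. The initiation factor AT5G54940 was the lowest, with 15 and 15 events at 105 FPKM in both inputs. Cytosolic ribosomal proteins lay close together a little above typical: the median was 0.76 over 104 loci, 71 were above 0 in both libraries, and 1 was over-recovered and 1 under-recovered. Rubisco and Calvin cycle enzymes, with a median of 0.87 over 17 loci, mostly had mock sites, in 15 loci.

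**Figure D4:**
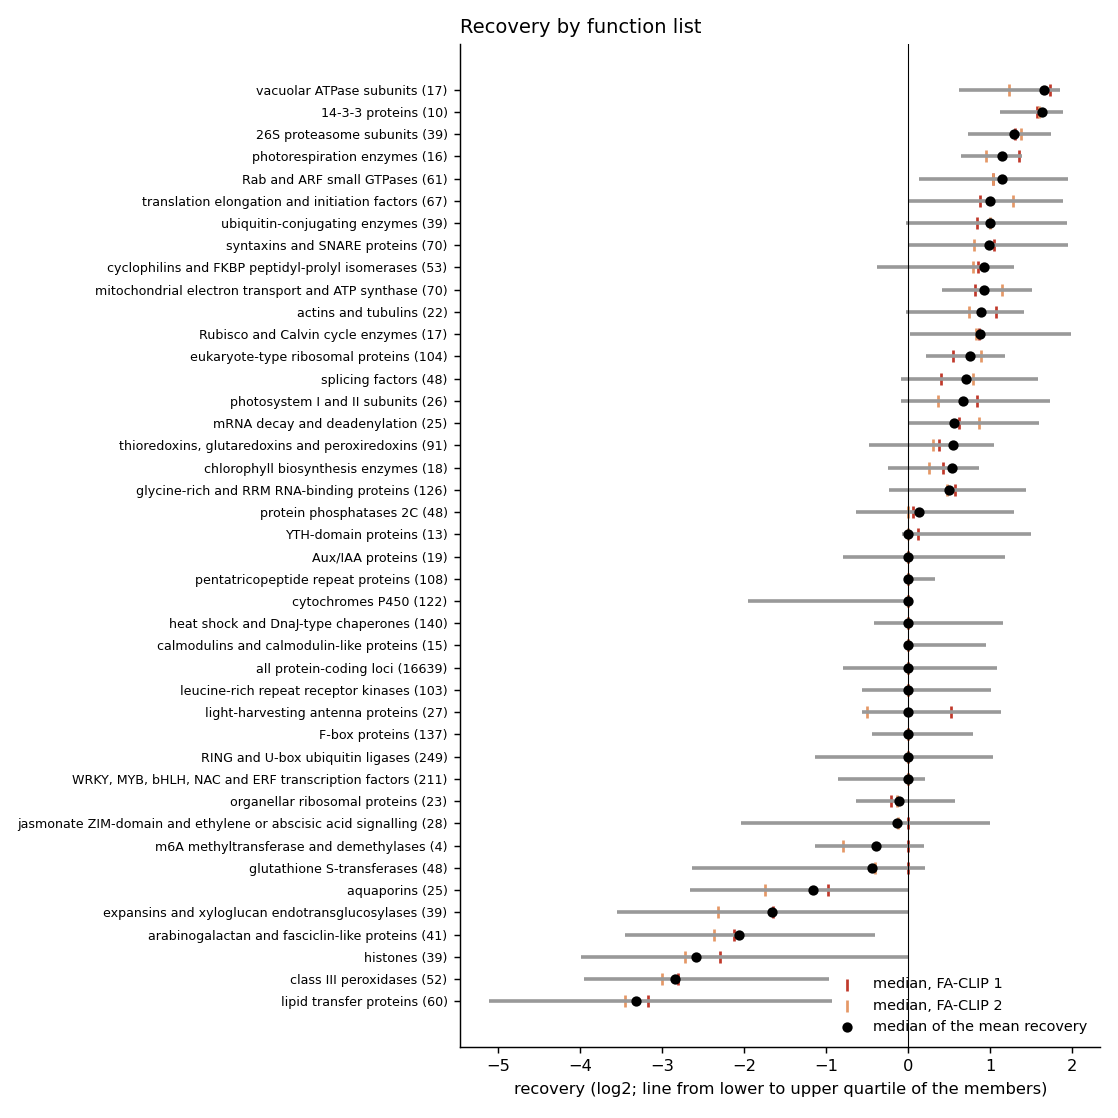
Median recovery of the function lists in FA-CLIP 1 and FA-CLIP 2 on the log2 scale, with the list's compared loci counted beside its name. Lipid transfer proteins and class III peroxidases lie lowest in both libraries, at -3.31 and -2.85 in the mean, and vacuolar ATPase subunits have the highest mean, 1.65, though not the highest median in FA-CLIP 2.

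Histone genes differed by variant in the families described here, which do not cover the whole list. The list of 39 compared histone loci had a median of -2.59, with 22 of 35 under-recovered and 2 over-recovered. Its highest member, the H2A gene HTA12, had 62 and 59 events at 9.66 and 9.71 FPKM. The families of the list were looked at after these values were seen. All 8 genes of histone H4, which packages DNA in every nucleosome, were under-recovered: they had at most 10 and 6 events at mean inputs of 14.3 to 67.4 FPKM, and 4 had none in either library. Of the 5 genes of H3.1, the variant laid down during DNA replication, 4 were under-recovered, and the fifth, AT5G10390, had 37 and 2 events. The 3 genes of H3.3, the variant laid down outside replication, had 99 and 221, 420 and 432, and 598 and 582 events at mean inputs of 94.1, 181 and 302 FPKM. Their mean recoveries ran from 0.25 to 1.23, and none was over-recovered. The H3.1 genes had lower mean inputs, 6.16 to 35.4 FPKM, and mean recoveries of -5.23 to 0.10. The 3 genes of H2A.Z, a variant found near transcription starts, had recoveries of 1.73 to 1.98, HTA9 with 397 and 256 events at 82.0 and 75.1 FPKM. H3.1 genes have 1 exon each and H3.3 genes 3 to 5. Genes of a family share sequence (up to 39.8% of the 25-mers of AT3G27360 occur in other transcripts), so how reads were divided among copies is uncertain.

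Among protein-coding loci of 10 FPKM or more, those with 1 exon had the lowest median recovery, and the median was higher in each group with more exons. At 10 to 100 FPKM, where 3.64% of the loci were over-recovered and 18.3% under-recovered, the 698 single-exon loci had a median recovery of -3.21 (-3.06 and -3.68). Their median was 2 events in each library, and 397 of them (56.9%, interval 53.2 to 60.5%) were under-recovered. Of the same loci 0 were over-recovered, which by counting error alone allows a share of up to 0.430% (3 counts of the total). The loci share the same libraries, so this limit and the intervals do not cover differences between libraries. The median was -1.07 with 2 exons, -0.27 with 3, 0.19 with 4 or 5 and 0.54 with 6 to 9 exons. In the 869 loci with 10 or more exons it was 0.83, with medians of 34 and 40 events, 3.57% (2.52 to 5.02%) under-recovered and 8.63% over-recovered. A mock site was listed for 7.45% of single-exon loci and 7.02% of those with 10 or more exons. At 100 FPKM or more, where 5.33% were over- and 21.1% under-recovered, the medians were -1.61 with 1 exon, over 83 loci, and 1.02 with 10 or more, over 31.

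**Figure D5:**
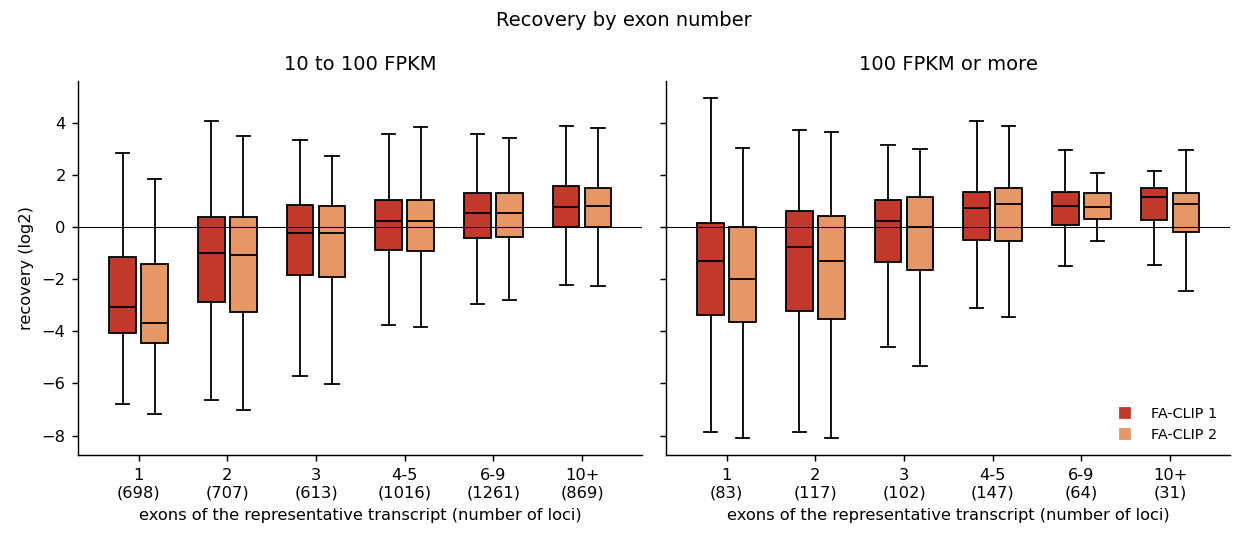
Recovery on the log2 scale by number of exons for protein-coding loci, in ranges of mean input FPKM. Boxes span the quartiles with a line at the median, whiskers reach 1.5 interquartile ranges and points beyond are not drawn. The boxes rise from single-exon loci to loci with many exons, with medians from -3.21 to 0.83 at 10 to 100 FPKM.

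At 10 to 100 FPKM the difference by exon number was present at each transcript length. Single-exon loci of 10 to 100 FPKM had a median of -3.77 below 1000 nt, -2.99 from 1000 nt, -2.52 from 1500 nt and -2.25 from 2000 nt, whereas loci with 2 or more exons had 0.28, 0.30, 0.22 and 0.26. At 100 FPKM or more the 7 single-exon loci of 1500 to 2000 nt had a median of 0.13, close to the 0.24 of the 86 with more exons, and the other lengths had -2.31, -1.08 and -2.45 against 0.38, 0.38 and 0.84. Leaving out members of the 6 low lists, the 724 single-exon loci of 10 FPKM or more had a median of -2.92 and the 4031 with 3 or more exons 0.47. The pattern held inside some families and not in others. Of RING and U-box ubiquitin ligases at 10 FPKM or more, 15 of 18 with 1 exon were under-recovered (median -3.52) and 0 of 25 with 3 or more exons were (0.42). Class III peroxidases were low although most have several exons: 22 of 25 with 3 or more exons were under-recovered, with a median of -3.99, and so were 15 of 19 expansins and xyloglucan endotransglucosylases, with a median of -3.59. Exon number and function go together in several of these lists, and the part of each in the values was not tested.

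Length of the 3′ UTR went with recovery mainly at its short end. At 10 to 100 FPKM the 172 loci with a 3′ UTR under 100 nt had a median of -1.82 and 45.9% were under-recovered, while from 200 nt upwards the medians ran from -0.16 to 0.18. The group under 100 nt includes gene models annotated without a 3′ UTR, such as FAH2, AT1G53541 and AT2G12461. It was not split by exon number. The windows at the strongest 3′ UTR site differed in one respect. The consensus context of m6A, searched on the strand of the RNA as any of 12 forms (NNACN, with a purine at both opening letters and any base but G at the last, none of which contains TGTA), occurred in 33.2% (30.5 to 36.02%) and 34.8% (32.1 to 37.6%) of the windows of over-recovered loci, 1123 and 1139 in number. It occurred in 29.4% and 31.1% of all such windows, 9562 and 10408. Under-recovered loci mostly had no site, and the 337 and 398 with a window held it in 21.1% (17.1 to 25.7%) and 25.6% (21.6 to 30.1%). TGTA occurred in 28.9% and 30.03% of these over-recovered windows. It occurred in 27.0% (22.5 to 32.0%) and 36.2% (31.6 to 41.0%) of these under-recovered windows and in 27.6% and 29.7% of all such windows. The under-recovered share thus lay below that of all windows in FA-CLIP 1 and above it in FA-CLIP 2. Uridine made up a median of 43.3% of the window in every group. The windows sit on sites chosen by the same events that define the groups, so site strength and recovery cannot be told apart in these shares. A window that holds a motif is not thereby a methylated site.

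Among noncoding loci most high recoveries were also seen in the mock. Of 26 compared miRNA genes 12 were over-recovered, where 7.09% of all compared loci were, and all 12 had mock events of at least 10% of their FA-CLIP events. MIR408 had 2023 and 469 events against 1906 and 2467 in the mock, and MIR159b had 5710 and 645 against 3711 and 3589, with FA-CLIP 2 below both mock libraries for each gene. The 3 over-recovered snRNA genes of 4 also carried mock events at that level. Long noncoding RNAs went the other way: 48 of the 54 that could be were under-recovered, against 19.4% of all loci that could be. The median over all 127 compared was 0. Low calls were not particular to them: they were made for 24 of 24 transcribed pseudogenes, 12 of 20 pseudogenes, 22 of 44 ncRNA loci and 6 of 9 tRNA genes that could be. For snoRNA and miRNA genes they were 9 of 32 and 5 of 18. Of the 1173 over-recovered protein-coding loci, 42 had mock events at 10% or more of their FA-CLIP events.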

How the data were processed

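FA-CLIP and mock values are counts of conversion events per site as deposited by the authors, per the file headers. Input values are FPKM per gene as deposited, a unit inferred from the header layout and the values. The submitters' processing notes name cutadapt, Bowtie and the TAIR10 build. The sources used here do not give the site caller, the counter or the annotation, and the counts are not scaled to depth. Sites listed for several transcripts were counted once per locus. Gene structures came from the RefSeq annotation of TAIR10.1, using the transcript with the longest coding sequence. Loci are named by recovery in each abundance range, leaving out those whose mean mock events reach 10% of the mean FA-CLIP events, and by the highest and lowest member of a list described. Members, lists and rules were chosen with earlier results of these data known. List membership was corrected by gene name after values had been seen. Shares carry 95% Wilson intervals. The calculations used Python 3.11.15, numpy 2.4.6, pandas 2.3.3, scipy 1.17.1 and matplotlib 3.10.9 and were tested on simulated data. Alternatives varied the input minimum, locus class, mock sites, pseudocount, threshold, neighbours, transcript length, site minimum and libraries.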

Additional observations from a re-analysis of the deposited data

How the results depend on the processing

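Where a named locus was present, its recovery kept its sign over 16 alternatives, and the smallest size was 2.45, with input times transcript length. Of the 25 named loci, 17 remained without loci with a mock site and 18 without loci that overlap another gene. With 5 FPKM or more in both inputs 20 remained. The loci were chosen as extremes of this value, and the under-recovered ones had no events, so their recovery could not turn positive. The unchanged signs are therefore not a test of these loci. Requiring 5 FPKM in both inputs left 9628 loci, 76.6% listed in both libraries, a Spearman correlation of 0.519 and 428 over-recovered loci. A mean input of 1 FPKM gave 53.4% listed. Protein-coding loci alone gave a correlation of 0.670 and 52.0% repeated high calls. Without loci with a mock site 51.9% were listed and the correlation was 0.631. A pseudocount of 3 events gave 518 over- and 1029 under-recovered loci, repeated in 51.5% and 84.6%, 8 lists past 1 in size rather than 13, and a single-exon median of -2.27. A 2-fold threshold gave 3460 and 3027 loci (70.2% and 79.6% repeated) and an 8-fold one 290 and 903 (42.7% and 80.3%). Input times transcript length gave 1669 over- and 1672 under-recovered loci, 68.7% and 72.9% repeated, 18 lists past 1 in size, a correlation of 0.655 and a single-exon median of -2.16. Sites of at least 3 events gave 45.6% listed. Sites of at least 5 gave 33.2% listed, a correlation of 0.621, 1846 over- and 1642 under-recovered loci and 65.2% of high calls repeated. Leaving out input 1 or input 2 gave 53.4% listed in both cases and correlations of 0.666 and 0.659. It gave 1202 and 1321 over-recovered loci, and 55.5% and 59.1% repeated high calls. Leaving out FA-CLIP 1 or FA-CLIP 2 makes a looser measure, since shares and calls then need only 1 library. It gave 63.2% and 60.4% listed, and 1971 and 2234 over-recovered loci. The correlations were then 0.658 and 0.665, and the single-exon medians -3.68 and -3.06. The single-exon alternatives, the loci free of overlapping genes (871 over- and 1299 under-recovered) and lists on 1 library were chosen after seeing the data. No paired analysis was possible because no test was made; each FA-CLIP library set against the same-numbered input gave 1155 over- and 1886 under-recovered loci. Of the 17 Rubisco and Calvin cycle loci 15 had a mock site. The few without one had a median of -1.72, too few to describe the list. The counts are not scaled to depth, single events are not listed, and the depth of the inputs is unknown, so low recoveries below about 5 FPKM could not be seen.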

Other observations

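Most FA-CLIP events outside the compared loci lay on structural and small RNA genes, in both FA-CLIP and mock. The 4 rRNA loci held 43.7% and 74.7% of those events in FA-CLIP 1 and FA-CLIP 2 and 50.1% and 56.7% in the mock libraries. Transfer RNA genes held 24.1% and 15.1%, against 19.8% and 16.0% in the mock. Genes for miRNAs held 25.1% in FA-CLIP 1 but 5.89% in FA-CLIP 2, against 22.5% and 21.4% in the mock. MIR398b, a regulator of copper and superoxide dismutase messages, had 29613 and 3769 events with ECT2, against 30356 and 40571 in the mock. Protein-coding loci below the input minimum held 3.01% and 2.50% of the events, in 456 loci.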
